A study of Mus musculus with 15 samples.

Results

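Matrix metalloproteinases are zinc enzymes that cut the proteins of the extracellular matrix, and tissue inhibitors of metalloproteinases (TIMPs) bind their active sites and block them. Genes for 8 metalloproteinases and 2 TIMPs, 10 of the 24027 gene symbols that the deposited tables share, were taken by symbol and followed through every comparison. The members are the collagenases Mmp13 and Mmp8, the stromelysins Mmp3 and Mmp10, the gelatinases Mmp2 and Mmp9, the macrophage elastase Mmp12, the membrane-type enzyme Mmp14, and the inhibitors Timp1 and Timp3. Most metalloproteinases are made as inactive zymogens, and their activity depends on removal of a propeptide as well as on transcription, so RNA levels are not levels of active enzyme. In skin, fibroblasts, keratinocytes at wound edges, macrophages and neutrophils are known sources of these enzymes, and ultraviolet light is a known inducer of several of them.

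Skin RNA was taken from female SKH1 mice, which are hairless and develop skin tumours under ultraviolet light. At 6 to 8 weeks of age the mice entered 10 weeks of ultraviolet B, 500 J/m2 on each of 5 weekly days, by which actinic keratoses arise. These are keratinocyte lesions that can precede squamous cell carcinoma. The 5 groups of 3 libraries each, 15 in all, comprise 4 kinds of skin from mice that received 0.25 g of placebo cream on 5 days a week (lesional, perilesional, non-lesional, and skin that ultraviolet light had not reached, called non-UV), and lesional skin from mice that received 0.25 g of topical GZ21T equally often. The table headers name a back group and no non-UV group, and back was taken as non-UV by elimination, which the labels do not state. If so, body site and exposure cannot be told apart in comparisons with it. What GZ21T contains is not given in the labels, and neither unirradiated mice nor perilesional or non-lesional skin under GZ21T were analysed here. Numbers 1 to 3 recur in each of the 4 placebo groups, but the labels do not say whether a number is 1 mouse or whether libraries of a group are different animals. The derived SEs take no account of such a link, and whether the authors' model did is not given in the sources used here. Thus a p-value reflects only how these libraries varied, and that variation may be technical.

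The files used here hold, for each gene, a log2 fold change, a Wald statistic, a p-value and an adjusted p, and no values per library, so depth is unknown and levels are given as log2 differences between groups with their standard error (SE). Over the genes that every table tested, the median SE lay between 0.27 and 0.276, whereas those of the members ran from 0.269 for Mmp14 in lesional over non-UV skin to 2.41 for Mmp8 in perilesional over non-lesional skin. The authors' filter on low counts left Mmp8 without an adjusted p in every table and Timp1 without one in the comparison of GZ21T with placebo lesions. Of the other members all 8 passed in all 4 tables. The genes kept by this filter were nested between tables with 0 exceptions, so Mmp8, and after it Timp1, had the lowest mean counts of the 10. All 14 keratinocyte markers passed this filter in every table, but so did all 10 skeletal muscle markers, so passing does not identify the tissue. Markers of other skin structures were read over the same comparisons. In lesional over non-UV skin 4 of 8 sebaceous markers (median 2.39) and 4 of 8 blood and endothelial markers (median 3.24) were higher, 1 of 12 hair follicle markers was lower (median -2.23), and 0 of 10 skeletal muscle markers were called (median 1.82). Over all genes tested there 10.2% were called as higher and 8.17% as lower, so the hair follicle count is near that share. In perilesional over non-lesional skin, where 0.112% of all genes tested were called, 2 of 8 sebaceous markers were higher (median 2.52) and 1 of 12 hair follicle markers was lower (median -4.25). In lesional over perilesional skin, where 0.533% of all genes tested were called, 0 markers of these 4 lists were called. Medians there were 3.40 for hair follicle, 1.80 for blood and endothelial, -0.24 for sebaceous and -0.30 for skeletal muscle markers. In GZ21T-treated over placebo lesions, where 3.61% of all genes tested were called, 1 of 5 blood and endothelial markers was lower (median -0.97). There 0 of 5 sebaceous (median -1.26), 0 of 9 hair follicle (median 1.92) and 0 of 10 skeletal muscle markers (median 0.20) were called. Skeletal muscle markers had a median of 1.74 in non-lesional over non-UV skin, with 0 of 10 called, beside 1.66% of all genes tested. Their part in the members' values was not tested. In bulk tissue, fewer cells of a type and less RNA per cell cannot be told apart.

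Of the members, 5 lie in a single cluster of 10 metalloproteinase genes on chromosome 9 of GRCm38 that spans 427.1 kb, in the order Mmp13, Mmp12, Mmp3, Mmp10 and Mmp8. Mmp13 occupies 7272514 to 7283331, Mmp12 7344381 to 7369499, Mmp3 7445822 to 7455975, Mmp10 7502352 to 7510240 and Mmp8 7558456 to 7568485, all on the plus strand. The other members are Mmp9 on chromosome 2 (164940780 to 164955850), Mmp2 on chromosome 8 (92827291 to 92853420), Timp3 on chromosome 10 (86300372 to 86349506), Mmp14 on chromosome 14 (54431612 to 54445364) and Timp1 on chromosome X (20870166 to 20874735), likewise on the plus strand. Mmp12 shares 1261 bases with Mmp1b on the opposite strand, while Timp1 lies wholly within Syn1 and Timp3 wholly within Syn3, both on the opposite strand. The library kit keeps strand, but whether the counting used it is not given in the sources used here, so these 3 genes carry that uncertainty.

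Promoter sequence is shown for cluster members that were called in a deposited table, because the data set them apart: Mmp13, Mmp3 and Mmp10 were called in lesions, and Mmp12 in non-lesional skin. Each line holds the 250 bases before the annotated start, 5′ to 3′, from RefSeq on GRCm38.p6, with capitals for the binding motif of AP-1, the FOS and JUN family of stress-activated transcription factors. The motif searched was TGANTCA, which reads the same on both strands.
Mmp13, chr9:7272264-7272513, plus strand: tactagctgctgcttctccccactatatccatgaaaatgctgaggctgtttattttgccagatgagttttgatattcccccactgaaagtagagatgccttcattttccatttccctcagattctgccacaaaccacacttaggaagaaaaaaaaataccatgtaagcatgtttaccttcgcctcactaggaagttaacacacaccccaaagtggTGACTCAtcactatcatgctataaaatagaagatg
Mmp3, chr9:7445572-7445821, plus strand: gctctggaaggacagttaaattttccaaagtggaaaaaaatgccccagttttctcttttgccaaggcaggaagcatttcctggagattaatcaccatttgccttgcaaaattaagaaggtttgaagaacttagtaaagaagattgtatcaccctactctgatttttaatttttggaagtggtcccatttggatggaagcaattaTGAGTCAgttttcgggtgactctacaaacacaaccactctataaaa
Mmp10, chr9:7502092-7502341, plus strand: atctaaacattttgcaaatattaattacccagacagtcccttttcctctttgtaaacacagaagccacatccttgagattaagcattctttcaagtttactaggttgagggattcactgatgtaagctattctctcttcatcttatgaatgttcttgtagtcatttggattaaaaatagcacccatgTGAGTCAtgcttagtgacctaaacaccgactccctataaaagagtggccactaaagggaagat
Mmp12, chr9:7344147-7344396, plus strand: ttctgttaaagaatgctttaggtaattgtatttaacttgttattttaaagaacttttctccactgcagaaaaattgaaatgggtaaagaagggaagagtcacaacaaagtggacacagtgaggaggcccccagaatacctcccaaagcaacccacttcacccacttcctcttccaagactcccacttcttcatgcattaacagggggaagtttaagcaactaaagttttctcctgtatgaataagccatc
The AP-1 motif began 35 bases before the start in Mmp13, 46 bases before it in Mmp3 and 63 bases before it in Mmp10. It is absent from the window of Mmp12 printed here, while a window at a second annotated start of Mmp12 (chr9:7347124-7347373) holds it 44 bases before that start. Promoter entries were found for 8 members, and the motif was present for 4 of them, against 6.75% of all 32851 promoter windows of the same length. The letters TATAAA, searched on the plus strand and known as a TATA box, occurred in the windows of Mmp13, Mmp3 and Mmp10 and in 7.59% of all windows. They began 16, 7 and 29 bases before the annotated start in Mmp13, Mmp3 and Mmp10, so their distance from that start differed. An ETS-type motif, AGGAAG on both strands, was found for 7 members and in 29.5% of all windows, and the matches of the 3 motifs did not overlap each other in the members' windows (0 overlaps). These matches describe the sequence and say nothing of which factor was bound.

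The plot of members by group sets each gene against non-UV skin. Mmp13 stood at -1.87 in non-lesional, 0.18 in perilesional, 4.57 in lesional and 1.90 in GZ21T-treated lesional skin, as log2 differences from non-UV skin. Lesions were thus the highest group and non-lesional skin the lowest. On the same scale Mmp3 stood at -1.84, -0.90, 2.12 and 0.32, and Mmp10 at -2.65, -1.56, 3.98 and 2.24, with the same groups at the ends. Mmp9 stood at 0.02, 1.73, 4.60 and 2.63, highest in lesions as well, with non-UV skin lowest. Across the 10 members placebo lesions were the highest group for 7, and non-lesional skin was the lowest for 7. How often these groups hold those places over all genes was not counted. The exceptions at the top were Mmp8 and Mmp12, highest in non-UV skin, and Timp3, highest in perilesional skin. Neighbouring groups in a member's own order did not pass a test: of 36 neighbouring pairs with an adjusted p 0 were called and 2 had an unadjusted p under 0.05, both of them GZ21T-treated against placebo lesions, for Mmp13 and Mmp3.

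**Figure D1:**
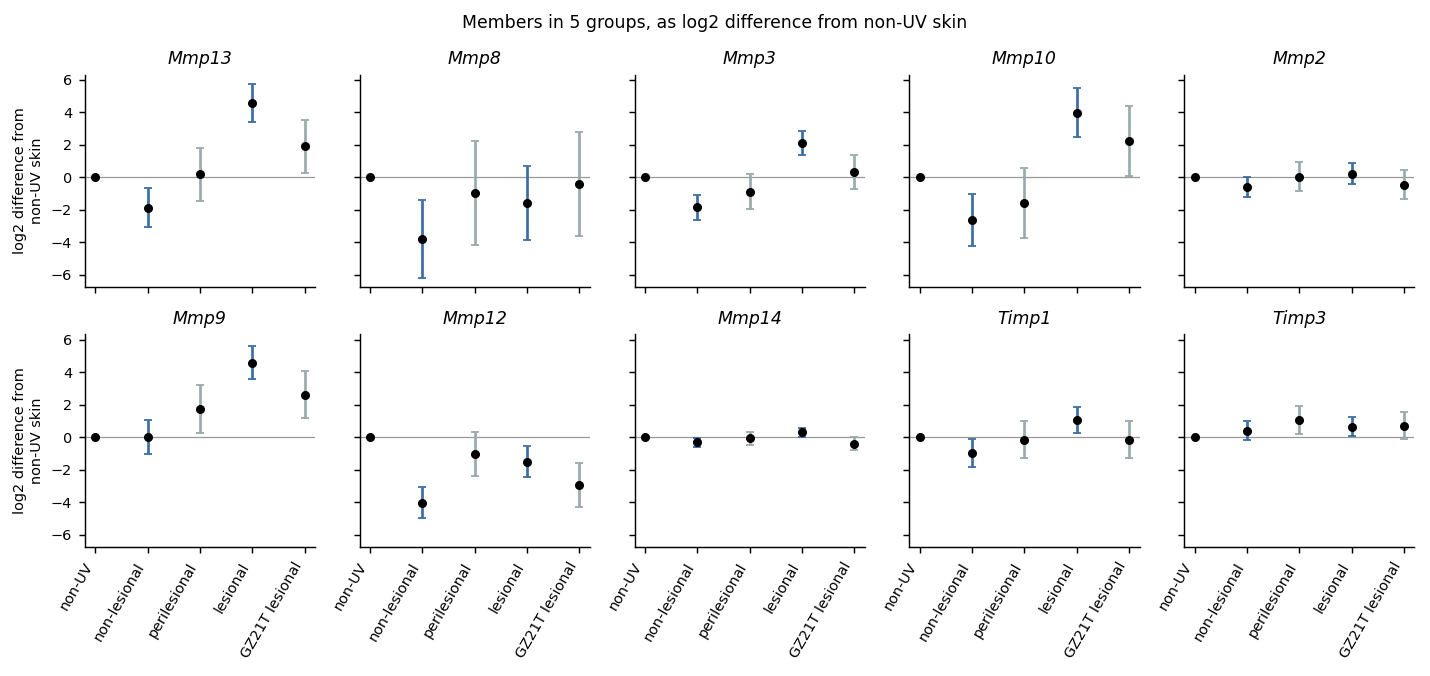
Log2 difference from non-UV skin (y axis) of each of the 10 members in the 5 groups (x axis), with non-UV skin at 0. Bars are 1 SE: blue bars come from deposited comparisons, grey bars are the upper bound of an SE that the tables do not fix. Mmp13, Mmp3, Mmp10 and Mmp9 peak in placebo lesions, and Mmp12 is lowest in non-lesional skin at -4.04.

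Placebo lesions were compared with non-UV skin by the authors' own test, DESeq2's Wald test with Benjamini-Hochberg adjustment. Transcripts of a gelatinase, a collagenase and both stromelysins were higher in lesions. The authors' deposited table gives Mmp9, the gelatinase that degrades denatured collagen and type IV collagen, a log2 fold change of 4.60 ± 1.04 (SE), which is 24.2-fold higher, with an adjusted p of 0.000368. Mmp13, the main interstitial collagenase of rodents, was 4.57 ± 1.17 higher on the log2 scale, or 23.7-fold, with an adjusted p of 0.00191 per the authors' deposited table. Mmp10 was 3.98 ± 1.52 higher (adjusted p = 0.0483) and Mmp3, which also activates other metalloproteinases, 2.12 ± 0.756 higher (adjusted p = 0.0329) per the authors' deposited table. In all, 4 of 9 tested members were higher and 0 lower, where 18.3% of the 15201 genes tested were called, 10.2% as higher and 8.17% as lower. The same 4 members had an unadjusted p under 0.05, as did 31.4% of all genes tested. The median log2 fold change of the tested members was 1.05, beside 0.08 over all genes tested.

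The remaining members did not pass in lesions over non-UV skin. Mmp2, the gelatinase that stromal cells make constitutively, stood at 0.22 with a 95% interval from -1.02 to 1.46, and Mmp14, which activates pro-Mmp2 at the cell surface, at 0.31 with an interval from -0.22 to 0.83 in the authors' deposited table. The narrow interval of Mmp14 leaves out a doubling, whereas that of Mmp2 does not. Timp1, the secreted inhibitor induced by inflammation, stood at 1.05 ± 0.808 (adjusted p = 0.383) and Timp3, which binds to the matrix, at 0.66 ± 0.597 (adjusted p = 0.472) per the authors' deposited table. Differences between enzymes and inhibitors were not tested, since the tables give no covariance between genes. Mmp12 stood at -1.51 ± 0.951 (adjusted p = 0.272) and Mmp8, the neutrophil collagenase, at -1.58 ± 2.25, untested, per the authors' deposited table.

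The 4 calls in lesions rest on the theoretical null of the Wald statistic. When the null spread was estimated from the genes instead, 0 of 9 members and 14 of 15201 genes were called. That estimate came from the quartiles of the Wald statistics of all genes tested. Such a spread also widens when many genes truly change, so this setting cannot tell widespread change from a null that is too narrow. Mmp10 sits at the threshold, and its adjusted p was 0.0526 after centring on the median and 0.0597 when adjusted over all genes with a p-value.

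**Figure D2:**
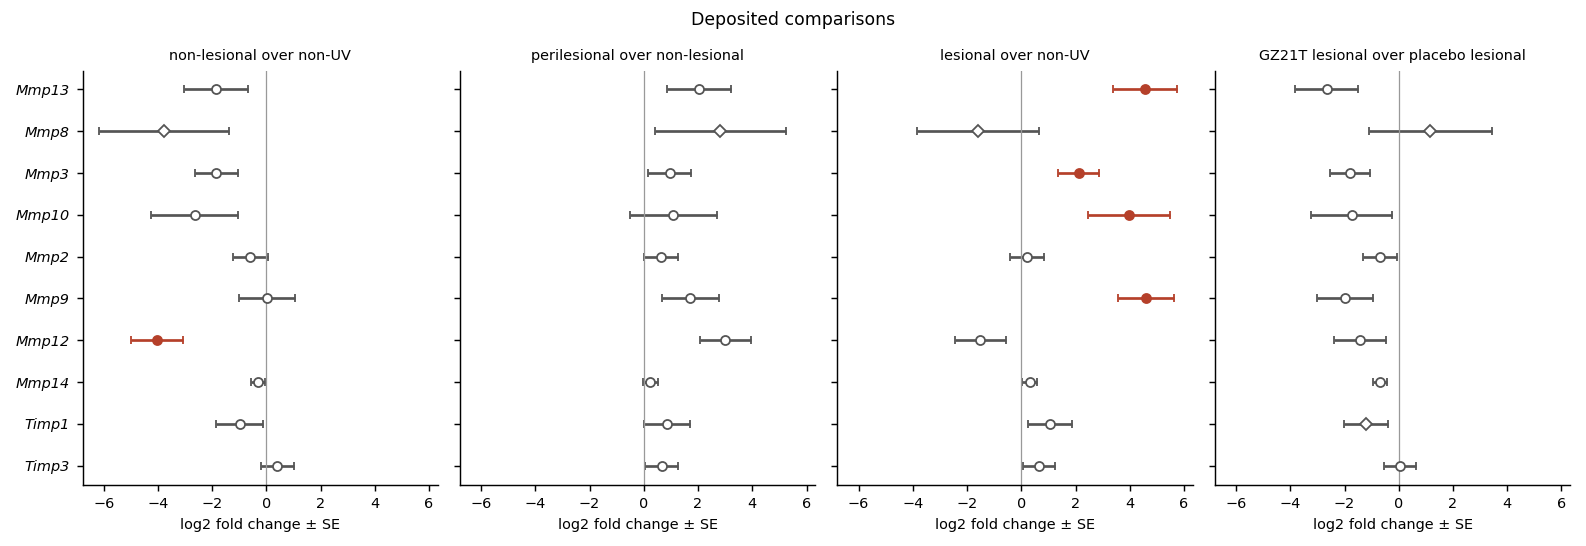
Log2 fold change ± SE (x axis) of the 10 members (rows) in the 4 deposited comparisons. Filled red circles have an adjusted p under 0.05, open circles do not, and diamonds have no adjusted p. Mmp12 is the filled point in non-lesional over non-UV skin, and Mmp13, Mmp3, Mmp10 and Mmp9 are filled in lesional over non-UV skin.

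Lesions were next set against the perilesional skin around them. This comparison was derived from 3 deposited tables, with an SE that is exact if the model holds the group alone. Both a collagenase and a stromelysin were higher in lesions: Mmp13 by 4.39 ± 1.16 (adjusted p = 0.0379), or 20.9-fold, and Mmp3 by 3.02 ± 0.757 (adjusted p = 0.0251), or 8.09-fold. Mmp10 had the widest gap of the members, 5.53 ± 1.53, and missed the threshold (adjusted p = 0.0526). It passed when p-values were adjusted over the genes tested in every table (adjusted p = 0.0432). Mmp9 stood at 2.86 ± 1.03 (adjusted p = 0.215) and Timp1 at 1.20 ± 0.789 (adjusted p = 0.627). Thus 2 of 9 tested members were higher and 0 lower, where 0.533% of 15187 genes were called, 0.309% as higher and 0.224% as lower. An unadjusted p under 0.05 was found for 4 members and for 10.5% of all genes. The median over the tested members was 1.20, beside 0.05 over all genes tested.

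Mmp2, Mmp14 and Timp3 stood close to 0 between lesion and surrounding skin, at 0.17 ± 0.632, 0.38 ± 0.267 and -0.40 ± 0.594, each with an interval that includes 0. Mmp12 stood at -0.48 ± 0.951 and Mmp8 at -0.62 ± 2.26. With the largest of the deposited SEs in place of the derived one, Mmp3 was called and Mmp13 was not (adjusted p = 0.0523), and when the null spread was estimated from the genes neither was called.

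Lesions over non-lesional irradiated skin gave gaps of 6.62 for Mmp10, 6.43 for Mmp13, 4.58 for Mmp9 and 3.96 for Mmp3 on the log2 scale. Mmp12, at 2.53, and Timp1, at 2.04, were also above 0, as were all 10 members and 56.8% of all genes tested. The tables do not fix the SE of this difference, so its upper bound was used, by which 0 of 9 members and 0% of 15182 genes were called, while 4 members and 7.92% of the genes had an unadjusted p under 0.05. With the largest deposited SE instead, 634 genes and 4 members were called: Mmp13 (adjusted p = 0.000161), Mmp3 (adjusted p = 0.000369), Mmp9 (adjusted p = 0.00374) and Mmp10 (adjusted p = 0.00605). The call in this comparison therefore depends on a variance that was not observed.

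**Figure D3:**
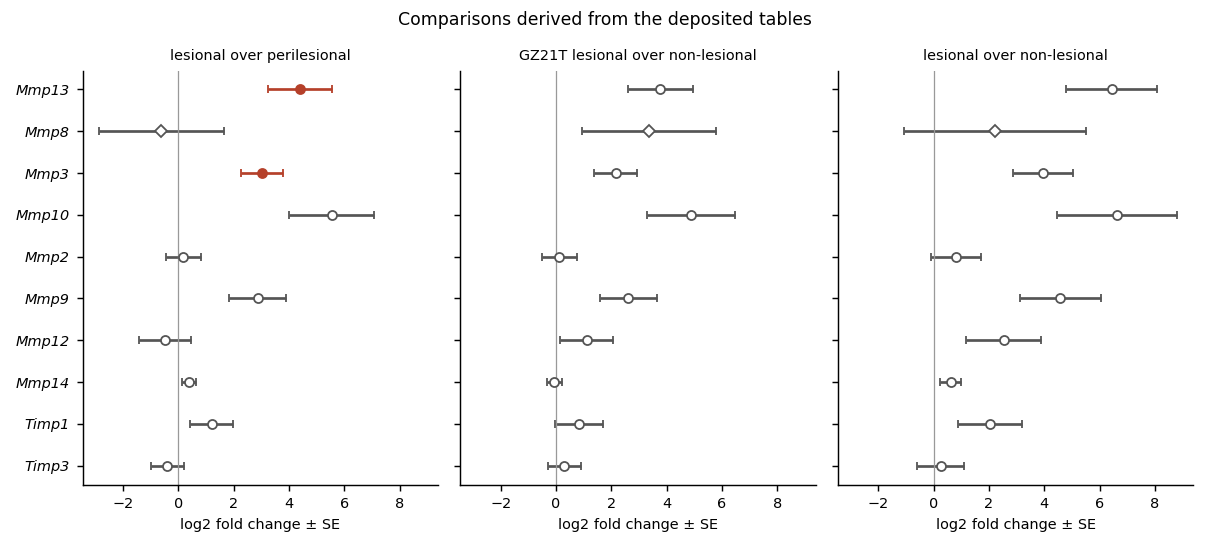
Log2 fold change ± SE (x axis) of the 10 members (rows) in 3 comparisons derived from the deposited tables. Filled red circles have an adjusted p under 0.05, open circles do not, and diamonds mark Mmp8, which was not tested. The SE of lesional over non-lesional skin is an upper bound. Mmp13 and Mmp3 are filled in lesional over perilesional skin.

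In irradiated non-lesional skin the elastase was the member called. Mmp12, which macrophages make to cut elastin, fell by 4.04 ± 0.957 on the log2 scale against non-UV skin (adjusted p = 0.00397) per the authors' deposited table, to a level 16.5-fold lower. It was the 1 member of 9 tested that passed, with 0 higher, where 1.66% of 14124 genes were called 0.531% as lower and 1.13% as higher. Of the tested members 2 had an unadjusted p under 0.05, as did 10% of all genes. Mmp3 stood at -1.84 ± 0.778 (adjusted p = 0.316), Mmp10 at -2.65 ± 1.60 (adjusted p = 0.638) and Mmp13 at -1.87 ± 1.18 (adjusted p = 0.677) per the authors' deposited table. Mmp9 stood at 0.02, with a 95% interval from -2.03 to 2.06 in the authors' deposited table. Timp1, at -0.98 ± 0.865, and Timp3, at 0.41 ± 0.598, did not pass there either. The median over the tested members was -0.98, beside -0.02 over all genes tested.

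Macrophage markers were read beside Mmp12. Of 14 tested in this comparison 4 were lower and 0 higher, where 0.531% of all genes were called as lower, and the other 10 did not pass. Their log2 fold changes had a median of -1.12, and they ranged from -3.97 for Clec7a to 0.29 for Csf1r. Clec7a, a receptor for fungal beta-glucans, was also the gene with the profile nearest to that of Mmp12 among 10898 candidates, at a Euclidean distance of 0.403 over the 4 deposited log2 fold changes, followed by Lhfpl2 at 1.29 and Gp49a at 1.40. The authors' deposited tables give Clec7a -3.97, 2.66, -1.41 and -1.27 in the order of comparisons in the plot of deposited fold changes, where Mmp12 has -4.04, 3.01, -1.51 and -1.42. Cd68, a lysosomal protein of macrophages, was lower at -2.23 ± 0.57 (adjusted p = 0.01) and Csf1r, the receptor that macrophages need to survive, stood at 0.29 ± 0.53 (adjusted p = 0.95) per the authors' deposited table. The part of macrophage number in the fall of Mmp12 was not tested. Mmp1b, which overlaps Mmp12, stood at 0.52 ± 1.48 there.

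Perilesional skin had a positive fold change over non-lesional skin for all 10 members, the untested Mmp8 among them, and for 53.1% of all genes tested. Of the members 0 of 9 tested were called by DESeq2, where 0.112% of 15201 genes were. Mmp12 stood at 3.01 ± 0.958 (adjusted p = 0.242) and was the 1 member with an unadjusted p under 0.05, as were 7.83% of all genes tested. Mmp13 stood at 2.04 ± 1.18 (adjusted p = 0.713) and Mmp9 at 1.72 ± 1.04 (adjusted p = 0.742) per the authors' deposited table. Timp3, at 0.65 ± 0.594, and Timp1, at 0.84 ± 0.848, did not pass. The tested members had a median of 0.95, beside 0.03 over all genes. The non-lesional libraries enter this comparison and the previous one with opposite signs, so the values of both are given side by side and no agreement is read from them. Macrophage markers had a median of 1.19 here, with 0 of 14 called. Their median was -0.22 in lesional over non-UV skin and 0.33 in GZ21T-treated over placebo lesions. In each 0 of 14 were called, beside 18.3% and 3.61% of all genes tested. Mmp12 stood at -1.51 and -1.42 in those comparisons. Perilesional over non-UV skin, which leaves the non-lesional libraries out, had -1.03 for Mmp12, 1.73 for Mmp9 and 0.18 for Mmp13, with 0 of 9 members called by the upper-bound SE and 0 with an unadjusted p under 0.05, where 0.645% of 15187 genes were called and 9.9% had such a p.

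GZ21T-treated lesions were compared with placebo lesions to ask how the cream altered the lesion. No member changed by the authors' DESeq2 test: 0 of 8 tested were called, where 3.61% of 10899 genes were 2.29% as lower and 1.31% as higher. The nearest to the threshold were Mmp14, at -0.69 ± 0.27 (adjusted p = 0.101), Mmp3, at -1.80 ± 0.754 (adjusted p = 0.128), and Mmp13, at -2.66 ± 1.16 (adjusted p = 0.144) per the authors' deposited table, turned in sign. These 3 had an unadjusted p under 0.05, as did 22.9% of all genes tested. Mmp9 stood at -1.97 ± 1.03 (adjusted p = 0.232), Mmp12 at -1.42 ± 0.955 (adjusted p = 0.372) and Mmp10 at -1.74 ± 1.5 (adjusted p = 0.509) in that authors' deposited table. Negative values were found for 8 of the 10 members, and the median over the tested ones was -1.58, beside -0.06 over all genes tested. Of all genes tested 44.8% had a positive value. Timp1 stood at -1.19 ± 0.813 without an adjusted p, Timp3 at 0.05 with a 95% interval from -1.12 to 1.22, and Mmp8 at 1.16 ± 2.28 in the authors' deposited table. The intervals are wide: that of Mmp13 runs from -4.94 to -0.38 and that of Mmp10 from -4.68 to 1.20, so these data do not show that the enzymes were alike in both kinds of lesion.

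Set against placebo non-lesional skin, GZ21T-treated lesions had Mmp10 at 4.89 ± 1.58 (adjusted p = 0.841), Mmp13 at 3.77 ± 1.18 (adjusted p = 0.805), Mmp9 at 2.61 ± 1.04 and Mmp3 at 2.16 ± 0.776. This derived comparison, with an exact SE, called 0 of 9 members and 0% of 15187 genes, while 4 members and 3.31% of the genes had an unadjusted p under 0.05. Treatment and lesion differ together here. Over non-UV skin treated lesions had Mmp9 at 2.63, Mmp10 at 2.24, Mmp13 at 1.90, Mmp3 at 0.32 and Mmp12 at -2.93, and 0 of 9 were called by the upper-bound SE, where 0.382% of 15187 genes were. Mmp12 alone among the tested members had an unadjusted p under 0.05 there, as did 5.83% of all genes. Over perilesional skin they had Mmp10 at 3.79, Mmp13 at 1.73, Mmp3 at 1.22 and Mmp9 at 0.89, with 0 of 9 members called and 0 with an unadjusted p under 0.05, where 0% of 15182 genes were called and 1.28% had such a p.

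**Figure D4:**
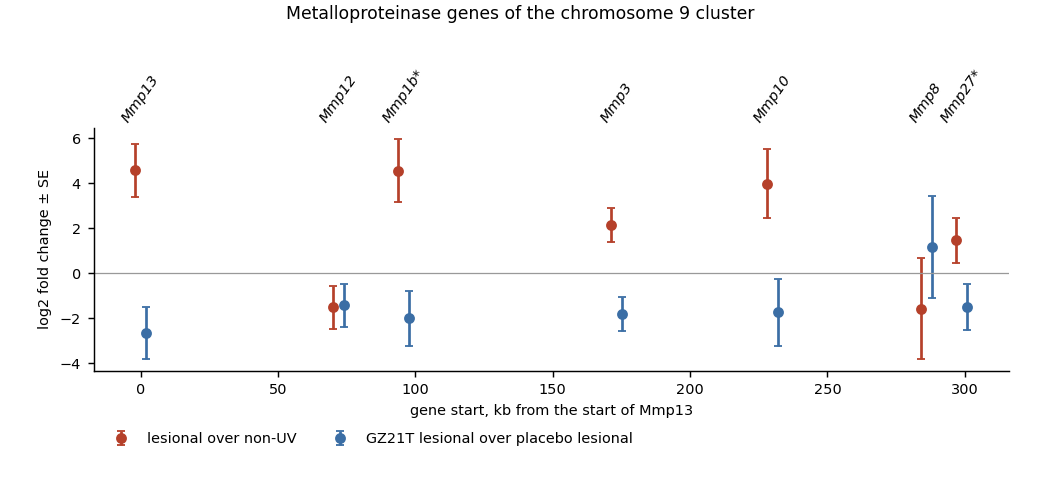
Log2 fold change ± SE (y axis) of the metalloproteinase genes of the chromosome 9 cluster by the start of each gene in kb from that of Mmp13 (x axis). Red points are lesional over non-UV skin, blue points GZ21T-treated over placebo lesions, and an asterisk marks genes that are not among the 10 members. Mmp12 at -1.51 and Mmp8 at -1.58 lie below 0 in lesions between neighbours that lie above it.

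Within the cluster some genes were called in lesions and others were not. In lesions over non-UV skin Mmp13 (4.57) and Mmp3 (2.12) were higher while Mmp12, which lies between them, stood at -1.51. Its neighbour Mmp1b, a rodent collagenase-like gene, was higher at 4.55 ± 1.39 (adjusted p = 0.0111) per the authors' deposited table. Mmp27, next to Mmp8 at the far side, stood at 1.45 ± 1.02 (adjusted p = 0.329). The cluster genes Mmp20 and Mmp7 had no fold change in any table, and Mmp1a, a paralogue of Mmp1b, had no adjusted p in any of them; how reads shared by the pair were counted is not given in the sources used here.

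Of the 17 other metalloproteinase and TIMP genes 12 were tested in lesions over non-UV skin, where 10.2% of all genes tested were called as higher and 8.17% as lower. Near those shares, 2 of the 12 were higher and 1 was lower, with a median of 1.17. Besides Mmp1b these were Mmp25, a membrane-anchored enzyme of leukocytes, at 2.83 ± 0.947 (adjusted p = 0.0219), and Mmp28, an enzyme of resting epidermis, which fell by 1.42 ± 0.376 (adjusted p = 0.00287) per the authors' deposited table. Mmp28 stood at 0.88 ± 0.378 (adjusted p = 0.138) under GZ21T there. Timp2 stood at 0.02 ± 0.873 and Timp4 at 2.59 ± 2.06 in lesions in the authors' deposited table. In the other 3 deposited comparisons 0 of the 11, 12 and 5 tested genes of this group were called. Over all genes tested the shares called were small as well. They were 1.66% in non-lesional over non-UV skin, 0.112% in perilesional over non-lesional skin and 3.61% in GZ21T-treated over placebo lesions.

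Genes that act on or with metalloproteinases were counted by list, and each count in lesions over non-UV skin stands beside 10.2% of all genes called as higher and 8.17% as lower. Counts under GZ21T stand beside 1.31% higher and 2.29% lower, and each call under GZ21T in these lists was lost when the null spread was estimated from the genes, which left 0 of 10899 genes called. Of 13 tested activators, inhibitors and related proteases 4 were higher and 0 lower in lesions over non-UV skin. Among them were Furin, a convertase that activates membrane-type metalloproteinases, at 0.86 ± 0.22 (adjusted p = 0.0019), Bsg, which encodes a surface inducer of metalloproteinases, at 1.19 ± 0.37 (adjusted p = 0.012), and the urokinase Plau at 0.68 ± 0.24 (adjusted p = 0.033) per the authors' deposited table. Serpinb2, a serine protease inhibitor, fell by 2.13 ± 0.64 under GZ21T (adjusted p = 0.041) per the authors' deposited table, the 1 of 10 tested that was called. Of 14 ADAM and ADAMTS proteases 6 were higher and 1 lower in lesions, led by the proteoglycan-cleaving Adamts1 at 3.05 ± 0.48 (adjusted p = 9.3e-08) and, lower, the procollagen protease Adamts14 at -3.78 ± 0.65 (adjusted p = 1.2e-06) per the authors' deposited table. Adamts1 fell by 1.86 ± 0.48 under GZ21T (adjusted p = 0.016) per the authors' deposited table, the 1 of 12 called.

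Of 18 matrix substrates tested 1 was higher and 1 lower in lesions over non-UV skin, shares of the list no larger than those over all genes tested (10.2% higher and 8.17% lower): the wound matrix protein Tnc at 2.23 ± 0.26 (adjusted p = 1.2e-14) and the hemidesmosomal collagen Col17a1 at -1.0 ± 0.38 (adjusted p = 0.047) per the authors' deposited table. The chain of type I collagen encoded by Col1a1 stood at 1.84 ± 0.90 (adjusted p = 0.14) there. Fibroblast markers had 0 of 12 called in lesions, with a median of 0.17.

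AP-1 and ETS genes were listed with Runx2 as known regulators of metalloproteinase promoters. In lesions over non-UV skin 2 of 12 were higher and 1 lower, near the shares of 10.2% and 8.17% over all genes tested. These were Junb at 1.57 ± 0.35 (adjusted p = 0.00035), Ets1 at 0.84 ± 0.27 (adjusted p = 0.017) and Atf3 at -1.62 ± 0.59 (adjusted p = 0.038) per the authors' deposited table. Fosl1 was the 1 of 12 called in lesions over perilesional skin, at 3.48 ± 0.75 (adjusted p = 0.0035), where 0.309% of all genes tested were called as higher. Under GZ21T 2 of 12 were lower, Fosl1 at -2.46 ± 0.75 (adjusted p = 0.041) and Fosb at -3.0 ± 0.93 (adjusted p = 0.042) per the authors' deposited table. In non-lesional over non-UV skin, where 0.531% of all genes tested were called as lower, 2 of 12 were lower, Atf3 at -3.21 ± 0.61 and Fosb at -3.98 ± 0.90. Of cytokines and other inducers 7 of 12 tested were higher in lesions over non-UV skin and 0 lower, among them the epithelial cytokine Tslp at 4.71 ± 0.90 (adjusted p = 1.8e-05) and the EGF receptor ligand Hbegf at 2.30 ± 0.57 (adjusted p = 0.0013) per the authors' deposited table. Of 8 tested under GZ21T 2 were lower, Tslp at -3.95 ± 0.89 (adjusted p = 0.0055) and the prostaglandin synthase Ptgs2 at -3.53 ± 1.0 (adjusted p = 0.029) per the authors' deposited table.

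Neutrophil genes were read beside Mmp9 and Mmp8, enzymes that neutrophils store. In lesions over non-UV skin 3 of 8 tested were higher and 1 lower, with a median of 1.06. Over all genes tested 10.2% were called as higher and 8.17% as lower. The smallest adjusted p was that of Il1r2, a decoy receptor for interleukin 1, which fell by 2.41 ± 0.42 (adjusted p = 1.8e-06) per the authors' deposited table. S100a8 and S100a9, calcium-binding proteins of neutrophils that stressed keratinocytes also make, were higher at 4.69 ± 1.39 (adjusted p = 0.0085) and 4.62 ± 1.23 (adjusted p = 0.0029) per the authors' deposited table. The remaining gene called as higher was Cxcr2, at 1.52 ± 0.50 (adjusted p = 0.020) per the authors' deposited table. The granule genes Ngp and Camp had no fold change in any table, Elane had no reads in either group of that comparison, Csf3r stood at 0.59 ± 1.05 and Mpo at 0.22 ± 1.64. The part of neutrophils in the rise of Mmp9 was not tested.

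**Figure D5:**
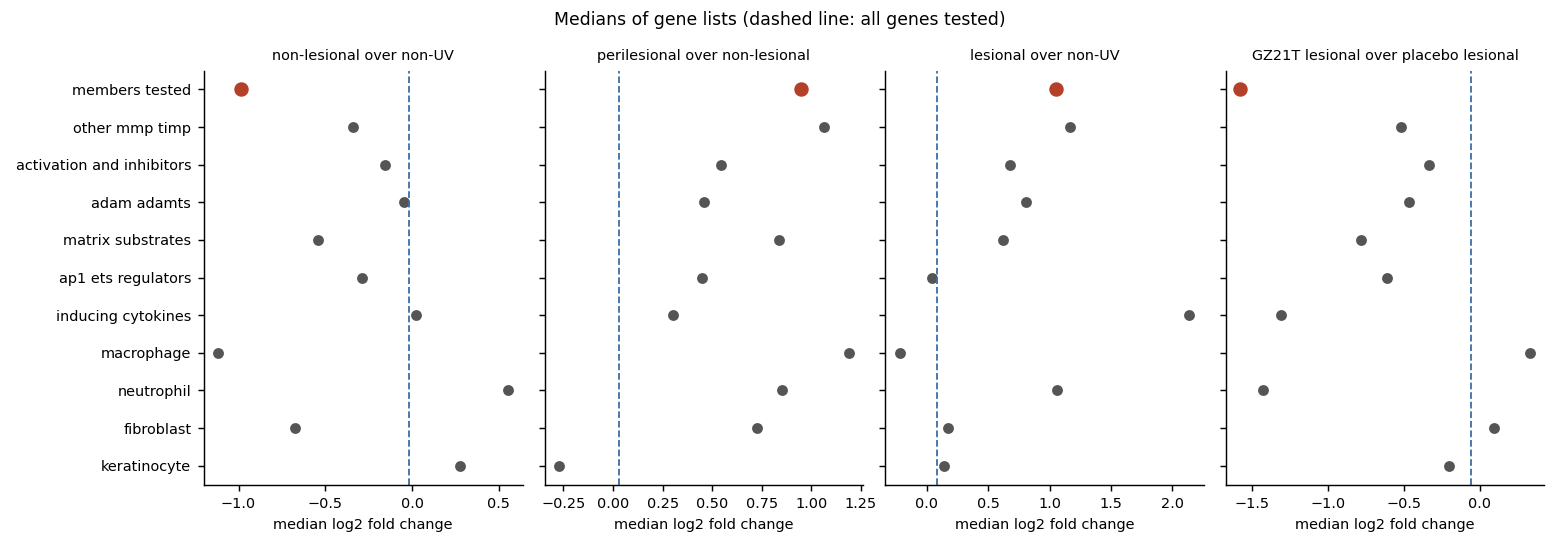
Median log2 fold change (x axis) of the tested members (red) and of 10 gene lists (grey, rows) in the 4 deposited comparisons. The dashed line is the median of all genes tested. The tested members lie at 1.05 in lesional over non-UV skin and at -1.58 in GZ21T-treated over placebo lesions.

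Genes with profiles nearest to those of the other called members were named by the same distance. Mmp13 and Mmp10 were each other's nearest gene, at a distance of 1.65. Mmp13 was followed by Mmp9 at 2.03 and Sprr2f at 2.24, and Mmp10 by Mmp3 at 2.03 and Ptgs2 at 2.25. Nearest to Mmp3 were Cd14 at 0.947, Pdpn at 1.05 and Tubb6 at 1.08, and nearest to Mmp9 were Dsc2 at 0.965, Rpl26 at 1.35 and Slc16a3 at 1.45. The distance is a description over 4 values that share groups.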

How the data were processed

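Libraries came from total RNA of mouse skin and kept strand, per the labels' protocols. The submitters' processing notes name Trim Galore for the reads, DESeq2, and the builds GRCm38 and mm10. Which aligner, counter, annotation and model they used is not given in the sources used here. Deposited were 4 tables, each holding a log2 fold change, a Wald statistic (a score, the fold change over its SE), a p-value and an adjusted p-value, per the file headers. Depth is unknown.

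Dividing each log2 fold change by its Wald statistic gave the SE. Removing symbols garbled into dates, 25 in the table of non-lesional over non-UV skin and 27 in the GZ21T table, left 24027 shared by the tables. The lesional table has a name (perilesional against lesional) that contradicts its header (lesional against back). Of 1195 genes without reads in perilesional and non-lesional skin 271 are negative in it, so the header was followed. Back was taken as the non-UV group by elimination. The GZ21T table was turned in sign: of 1003 genes without reads in placebo lesional and non-UV skin 253 were then positive and 0 negative. Another 6 comparisons were derived as sums or differences of deposited fold changes, assuming 1 fit over all libraries with the group as its term. For 2 of them the group variances cancel and the SE is exact, and for 4 the upper bound was used. Their p-values are two-sided normal tails, adjusted by Benjamini-Hochberg over the genes that both the lesional and the perilesional table tested. The derivation was run on data simulated under the same assumption of 1 fit by group. Such a run checks the algebra and cannot tell whether the authors' model was of that kind. Called means an adjusted p under 0.05.

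Members and lists were chosen with earlier results of these data known. Named genes are all members, up to 4 genes of each list described with the smallest adjusted p, and the 3 genes nearest in profile to each called member. Csf1r, Csf3r, Col1a1, Timp2, Timp4 and Mmp27 were named after their values were seen, as were the list genes and neighbours given outside that rule. A list gene that the rule names is not reported here. Coordinates are from GENCODE release M21 on GRCm38. Python 3.11.15, numpy 2.4.6, pandas 2.3.3 and scipy 1.17.1 were used.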

Additional observations from a re-analysis of the deposited data

How the results depend on the processing

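No paired analysis was possible because the files used here hold no values per library, and leaving out each library was not run for the same reason. The lower bound of the SE of a derived comparison sets the variance of 1 group at 0 and was not run as a test. Of the counts of members called, those in 2 comparisons changed by over 1.5 times when the null spread was estimated from the genes: lesional over non-UV skin went from 4 to 0 and lesional over perilesional skin from 2 to 0. With the largest deposited SE lesional over perilesional skin went from 2 to 1 and lesional over non-lesional skin from 0 to 4. Adjustment over all genes with a p-value or over those tested in every table, centring on the median and an adjusted p threshold of 0.1 moved no count of members by more than that, and no member changed sign under any alternative run.

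Counts over all genes moved more. When the null spread was estimated from the genes they went from 235 to 127 in non-lesional over non-UV skin, 17 to 2 in perilesional over non-lesional skin, 2785 to 14 in lesional over non-UV skin, 393 to 0 in GZ21T-treated over placebo lesions, 81 to 12 in lesional over perilesional skin, 98 to 40 in perilesional over non-UV skin and 58 to 163 in GZ21T-treated lesional over non-UV skin. From 0 they went to 12 in GZ21T-treated lesional over non-lesional and 19 over perilesional skin. The largest deposited SE gave 53 in lesional over perilesional skin, 634 over non-lesional skin, 1207 in perilesional over non-UV skin, and 499 and 4 in GZ21T-treated lesional over non-UV and perilesional skin. All genes with a p-value gave 209 in GZ21T-treated over placebo lesions. A threshold of 0.1 gave 1092 there, 30, 152, 194 and 94 in perilesional over non-lesional, lesional over perilesional, perilesional over non-UV and GZ21T-treated lesional over non-UV skin, and 2 in lesional over non-lesional skin. Centring turned 1543 higher of 2785 into 1244 of 2851 in lesional over non-UV skin, 143 of 393 into 201 of 343 in GZ21T-treated over placebo lesions, and 47 of 81 into 35 of 78 in lesional over perilesional skin. The causes were not tested. SEs above 1 on the log2 scale for Mmp13, Mmp10, Mmp9 and Mmp8 limit what these libraries can show.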
